A study of Mus musculus with 6 samples.

Results

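Potassium channel genes were examined by RNA sequencing of mouse hepatic stellate cells, pericytes of the liver sinusoid that store retinoids, on day 1 of primary culture. The members were chosen by gene symbol, as every symbol built from Kcn, letters, a number and at most 1 further letter. This gave 73 of the 17909 gene identifiers listed in at least 1 library, of which 33 had 30 or more counts summed over the 6 libraries and are described in detail. Just inside that limit lay Kcnab1 with 32.9 counts, and just outside lay Kcnip4 and Kcnmb2 with 29 counts each.

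The HAS2_Tg group (replicates 4, 5 and 6) came from ASMA-HAS2 Tg mice, which carry human HAS2 under the promoter of alpha smooth muscle actin. The Has2_KO group (replicates 7, 8 and 9) came from Has2 f/f Lrat-cre mice, in which Has2, a hyaluronan synthase gene, is deleted in stellate cells. All mice were male C57BL/6 animals of 24 weeks, and all cells were depleted of macrophages with Cd11b beads and kept in 10% serum for 4 h of attachment and another 14 h. No unmodified group was analysed here, so a difference due to the transgene and a difference due to the deletion cannot be told apart. That promoter is also active in smooth muscle and other contractile cells. The labels do not say whether each library came from its own mouse, so p-values measure the spread between these libraries only.

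Potassium channels let potassium ions leave the cell and so hold the membrane at a negative voltage. In contractile cells such as smooth muscle and pericytes, their opening closes voltage-gated calcium channels and favours relaxation. Pore-forming subunits fall into voltage-gated, inward rectifier, tandem pore domain and calcium- or sodium-activated families, and accessory subunits tune their gating and traffic. In the liver, stellate cells wrap the sinusoids, where their contraction narrows these vessels.

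Of the 28 members that passed a low-count filter, 8 were higher and 10 lower in HAS2_Tg than in Has2_KO. The tandem pore channel gene Kcnk3 and the inward rectifier gene Kcnj5 had the largest rises, 13.4-fold and 11.9-fold. Kcnj6, an inward rectifier gene, had no count in any HAS2_Tg library, while Kcnq1 and Kcnk13 had 1 count each there. Kcnj8, the pore subunit of the vascular ATP-sensitive channel, had the highest mean FPKM (fragments scaled to gene length and depth) in both groups, and its fold change was small. These tests used edgeR's quasi-likelihood method over all 13014 genes, with Benjamini-Hochberg adjusted p under 0.05. The share of members called was 64.3%, beside 40.7% of all genes tested. For calls of at least 2-fold, it was 42.9% (12 of 28), beside 11.2% of all genes. These were 5 higher members, beside 3.31% of all genes, and 7 lower members, beside 7.91%. The counts of 8 and 10 stand beside 20.2% of all genes called higher and 20.5% called lower in HAS2_Tg. Members near 0 in a group could pass the filter only through the other group, which fixes their direction, so these shares are descriptions. The median log2 fold change of the 28 members was -0.19, beside -0.01 for all genes, and the median size without sign was 0.89, beside 0.25.

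The libraries held between 11961726 and 12423220 expected counts, of which the 73 members took 0.0191% to 0.0208% in HAS2_Tg and 0.0181% to 0.0186% in Has2_KO. The mouse gene Has2 had 847, 889 and 835 counts in the HAS2_Tg libraries and 1 count in each Has2_KO library. Whether reads of the human HAS2 transgene were counted with it was not tested. All 10 stellate cell markers examined were detected, with summed levels of 8297 to 9066 CPM (counts scaled to library size) in HAS2_Tg and 6211 to 6558 CPM in Has2_KO. Markers of other cell types were not equal between the groups, and their values stand beside the channel genes below. In bulk RNA, fewer cells of a type and less RNA per cell cannot be told apart.

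The upstream regions of 4 genes with a window in the promoter table are shown. Kcnj5 and Kcnj6 encode subunits of the same family of G protein-gated channels and moved in opposite directions. Kcnmb1 is the smooth muscle subunit that rose, and Kcnj8 is the member with the highest FPKM. The sequences are from RefSeq on GRCm38.p6, which is also called mm10, and run from 250 bases before to 50 bases after a gene's start. For Kcnj6, the farther upstream of 2 listed starts is shown. Capitals mark the letters TGGGAA, the core of the motif bound by the Notch effector RBPJ, on either strand. No printed window holds GGAATG, a core bound by TEAD factors, or TATAAA, and no match of these motifs overlaps another in the printed windows.
Kcnj5, chr9:32344295-32344594, minus strand: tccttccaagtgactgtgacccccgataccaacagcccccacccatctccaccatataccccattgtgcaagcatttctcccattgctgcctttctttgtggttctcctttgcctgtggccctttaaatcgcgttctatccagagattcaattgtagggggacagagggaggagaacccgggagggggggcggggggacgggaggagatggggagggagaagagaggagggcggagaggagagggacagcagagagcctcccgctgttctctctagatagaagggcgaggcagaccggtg
Kcnj6, chr16:94997647-94997946, minus strand: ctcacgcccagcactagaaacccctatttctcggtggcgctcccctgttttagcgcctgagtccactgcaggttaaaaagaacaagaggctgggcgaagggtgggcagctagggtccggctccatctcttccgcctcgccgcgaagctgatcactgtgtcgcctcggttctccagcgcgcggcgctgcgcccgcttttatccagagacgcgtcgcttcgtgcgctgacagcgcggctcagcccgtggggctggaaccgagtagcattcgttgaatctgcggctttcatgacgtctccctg
Kcnmb1, chr11:33962763-33963062, plus strand: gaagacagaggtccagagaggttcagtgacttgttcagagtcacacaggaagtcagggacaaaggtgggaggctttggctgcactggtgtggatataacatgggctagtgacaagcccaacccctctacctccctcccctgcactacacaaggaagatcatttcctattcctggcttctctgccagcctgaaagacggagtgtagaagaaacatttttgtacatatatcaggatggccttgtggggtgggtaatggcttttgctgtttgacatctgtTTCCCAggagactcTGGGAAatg
Kcnj8, chr6:142571565-142571864, minus strand: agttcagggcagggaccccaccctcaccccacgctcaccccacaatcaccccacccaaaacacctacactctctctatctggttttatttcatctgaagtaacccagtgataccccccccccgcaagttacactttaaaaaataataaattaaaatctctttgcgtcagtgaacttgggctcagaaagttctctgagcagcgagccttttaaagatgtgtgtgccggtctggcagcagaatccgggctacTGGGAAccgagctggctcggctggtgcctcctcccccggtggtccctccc
The Kcnmb1 window holds 2 matches to TGGGAA and the Kcnj8 window 1, all after or at the start, and the Kcnj5 and Kcnj6 windows hold none. Among all 32851 promoter windows of this length in the table, 25.6% hold TGGGAA, 14.7% GGAATG, 13.6% TATAAA and 1.63% a CArG box, the motif of the smooth muscle regulator SRF, each counted on both strands. The members with 30 or more counts had 40 windows over 24 genes, of which 14 hold TGGGAA, 4 GGAATG, 3 TATAAA and 0 a CArG box. The Kcnj6 window is rich in CG pairs, with 30, while that of Kcnj5 has 10, Kcnj8 9 and Kcnmb1 1, beside a median of 7 over all windows. A match describes letters in the window and is not a binding site shown by these data.

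Per unit of length, a few genes held most of the channel message. Summed over the 73 members, the authors' FPKM values came to 64.9 ± 4.21 in HAS2_Tg and 60.7 ± 1.34 in Has2_KO (SD, n = 3 each). Kcnj8, Kcne4, Kcnip3, Kcnk5 and Kcnk6 together made up 67.7% to 73.0% of this sum in the HAS2_Tg libraries and 71.1% to 72.7% in the Has2_KO libraries. Kcnj8 led with 13.9 ± 2.82 FPKM in HAS2_Tg and 19.8 ± 0.72 FPKM in Has2_KO. Kcne4, which encodes a beta subunit that modulates voltage-gated channels, followed with 12.8 ± 1.89 FPKM in HAS2_Tg and 8.47 ± 0.35 FPKM in Has2_KO. In HAS2_Tg the mean levels of Kcnj8 and Kcne4 lay within 1 SD of each other. In all 6 libraries Kcnj8 had a higher FPKM than Kcne4. Kcnk3 had 2.94 ± 0.11 FPKM in HAS2_Tg and 0.24 ± 0.05 FPKM in Has2_KO.

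**Figure D1:**
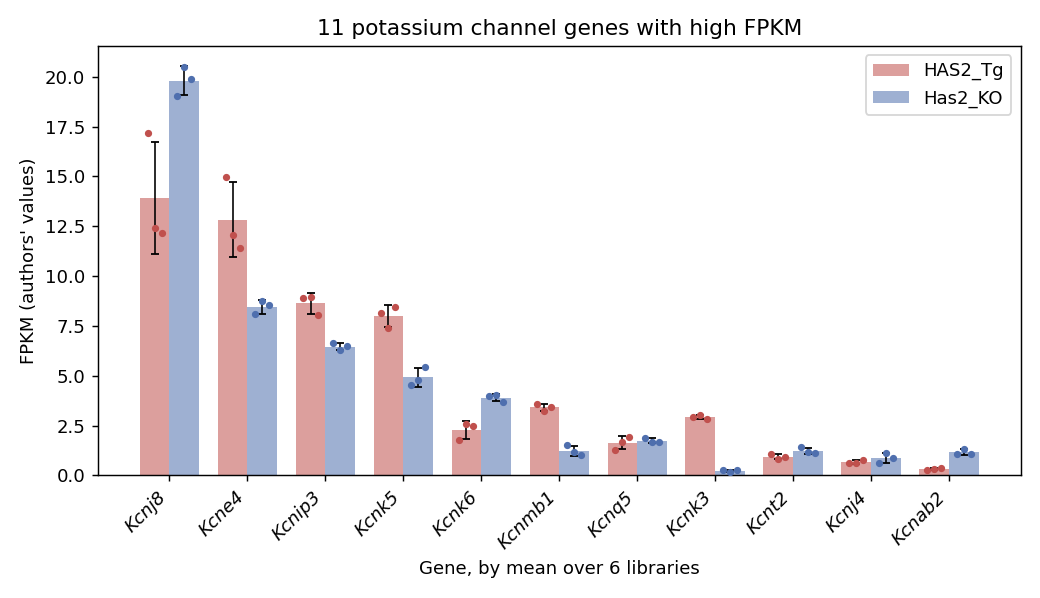
Levels of 11 potassium channel genes among the 12 with the highest mean FPKM, as deposited by the authors. Bars are means, error bars SD over 3 libraries, and points single libraries, with HAS2_Tg left of Has2_KO; Kcnj8 averages 13.9 FPKM in HAS2_Tg and 19.8 FPKM in Has2_KO, while Kcne4, Kcnip3 and Kcnk5 stand higher in HAS2_Tg.

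Tandem pore domain channels carry background currents that set the resting voltage. Of 11 members listed in this family 5 were tested, and all 5 were called, 3 higher and 2 lower in HAS2_Tg. Over all genes, 20.2% were called higher and 20.5% lower. Kcnk2 could pass the filter only through HAS2_Tg and Kcnk13 only through Has2_KO. Kcnk3 encodes an acid-sensitive channel known to set the resting voltage of pulmonary artery smooth muscle. It lies on chromosome 5 from 30588170 to 30625270 (GRCm38). The HAS2_Tg libraries had 12.2, 12.2 and 11.6 CPM, against 1.06, 0.68 and 0.92 CPM in the Has2_KO libraries. The HAS2_Tg libraries lay close together, and each stood far above every Has2_KO library (log2 fold change 3.74, SE 0.19, edgeR adjusted p = 7.07e-10). Kcnk3 shares 229 exonic bases with the opposite-strand transcript Gm9899, whose reads cannot be told apart without a strand setting. Kcnk2, a channel gated by stretch and lipids, had 1.17, 1.13 and 1.05 CPM in HAS2_Tg, against 0, 0.38 and 0.15 CPM in Has2_KO. The summed counts were low, 38 in HAS2_Tg against 7 in Has2_KO, without overlap between groups (log2 fold change 2.59, SE 0.56, edgeR adjusted p = 0.00195). The log2 fold change was 3.70 without Has2_KO replicate 8 and 2.02 without Has2_KO replicate 7, and the gene was called in both cases. Kcnk2 shares 604 exonic bases with the opposite-strand transcript A430027H14Rik, with the same limit as for Kcnk3. Kcnk5, an alkaline-activated channel, had the highest FPKM of the family, with 29.8, 25.99 and 30.5 CPM in HAS2_Tg and 14.4, 15.2 and 17.4 CPM in Has2_KO. All 3 HAS2_Tg libraries were above all Has2_KO libraries, by a smaller factor than Kcnk3 (log2 fold change 0.87, SE 0.11, edgeR adjusted p = 9.69e-06).

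Kcnk6 and Kcnk13 went the other way. Kcnk6, a weakly inward-rectifying channel also known from macrophages, had 7.89, 11.1 and 11.01 CPM in HAS2_Tg, against 15.4, 15.6 and 14.3 CPM in Has2_KO. HAS2_Tg replicate 4 was the lowest library, and the groups did not overlap (log2 fold change -0.60, SE 0.13, edgeR adjusted p = 0.00231). Kcnk13, a halothane-inhibited channel prominent in microglia, had 1 count over the HAS2_Tg libraries, in replicate 5, and 41 counts over the Has2_KO libraries. Scaled to library size, the Has2_KO sum was 35.4 times the HAS2_Tg sum, with a 95% exact interval of 6.01 to 1432 that covers counting error only. The family's summed FPKM was 13.7 ± 0.42 in HAS2_Tg and 9.65 ± 0.38 in Has2_KO.

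**Figure D2:**
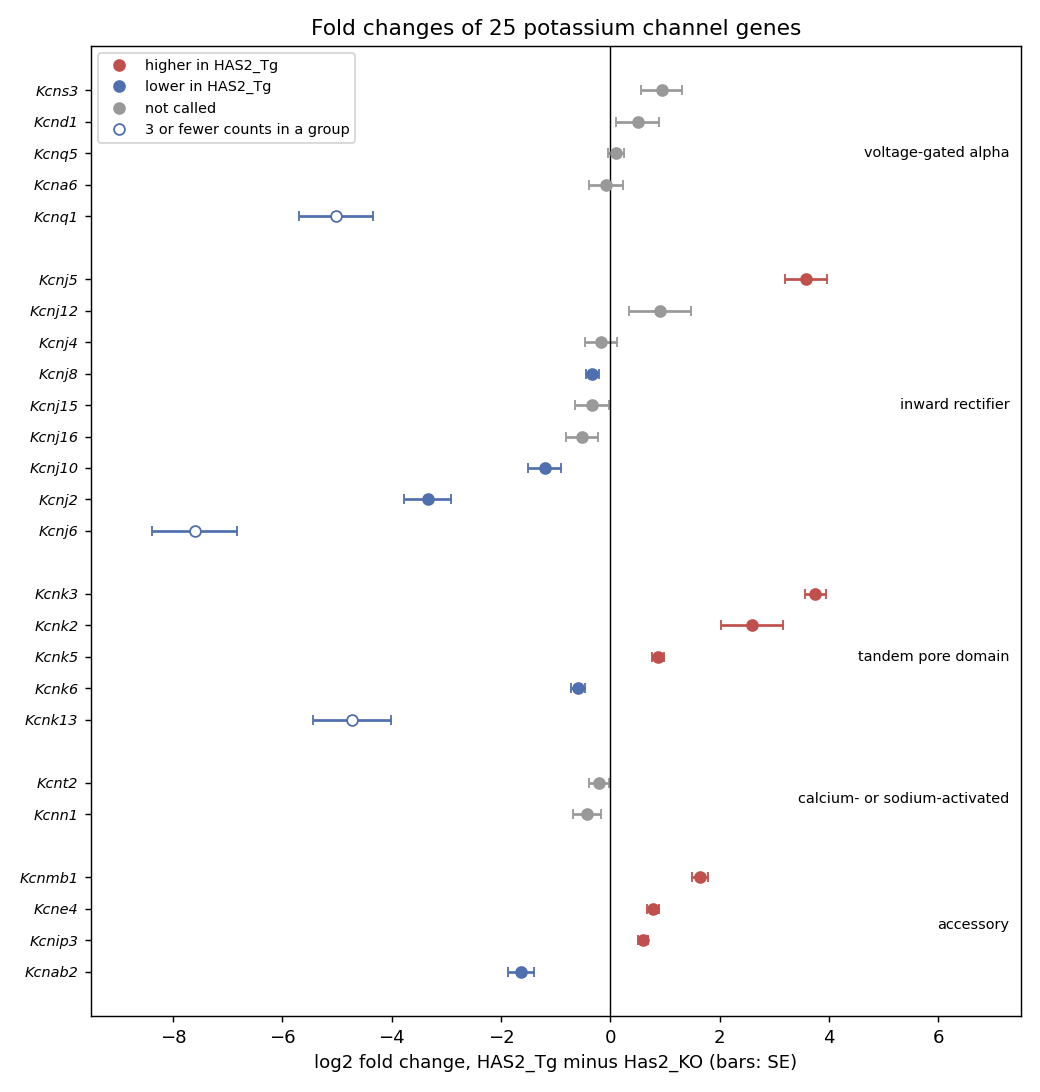
Log2 fold changes, HAS2_Tg minus Has2_KO, of 25 of the 28 tested members grouped by family, with bars for the SE. Red points are higher and blue points lower in HAS2_Tg at an edgeR adjusted p under 0.05, grey points are not called, and open points have 3 or fewer counts in a group, so their fitted values are no measured size; the inward rectifier, tandem pore domain and accessory families show calls in both directions.

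Inward rectifiers pass potassium more easily into the cell than out of it. Of 9 tested, Kcnj5 was higher and Kcnj6, Kcnj2, Kcnj10 and Kcnj8 were lower in HAS2_Tg. Beside this, 20.2% of all genes were called higher and 20.5% lower. Kcnj5 and Kcnj6 encode subunits of channels opened by G protein beta-gamma subunits, best known in heart and neurons. Kcnj5 (chromosome 9, from 32314706 to 32344380) had 4.57, 2.88 and 2.88 CPM in HAS2_Tg, against 0.15, 0.23 and 0.46 CPM in Has2_KO. HAS2_Tg replicate 4 was the highest, and the lowest HAS2_Tg library was still above every Has2_KO library (log2 fold change 3.58, SE 0.39, edgeR adjusted p = 2.78e-06). Kcnj6 (chromosome 16, from 94744980 to 94997696) was listed in no HAS2_Tg library and had 24, 31 and 23 counts in the Has2_KO libraries. It was therefore at least 22.4-fold lower in HAS2_Tg, taking 3 counts over the group as the floor. Kcnj6 could pass the filter only through the Has2_KO libraries, which fixed its direction, so its edgeR adjusted p of 4.72e-06 is a description. Kcnj9, another subunit of this channel type, had 2 counts in HAS2_Tg and 3 in Has2_KO, too few to compare.

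Kcnj2, the classical strong inward rectifier, had 0.18, 0.26 and 0.17 CPM in HAS2_Tg, against 1.98, 1.67 and 2.90 CPM in Has2_KO. The groups were well apart (log2 fold change -3.34, SE 0.43, edgeR adjusted p = 1.63e-05). Its relatives Kcnj12 and Kcnj4 were not called, with log2 fold changes of 0.90 (SE 0.57) and -0.17 (SE 0.29). The expected counts of Kcnj2 and Kcnj12 were not whole numbers, nor were those of several other members, among them Kcnk3, Kcnj5 and Kcnmb1. How reads shared with other genes were divided was not tested. Kcnj10, known from glia and kidney, had 0.90, 0.70 and 0.96 CPM in HAS2_Tg and 1.90, 1.67 and 2.37 CPM in Has2_KO (log2 fold change -1.21, SE 0.30, edgeR adjusted p = 0.00441). Each HAS2_Tg library lay below each Has2_KO library. Its partner subunit gene Kcnj16 (-0.52, SE 0.29) was not called, nor was Kcnj15 (-0.33, SE 0.31), and the groups overlapped for both genes.

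Kcnj8 had 40.5, 28.3 and 28.4 CPM in HAS2_Tg, against 39.1, 42.2 and 41.1 CPM in Has2_KO. HAS2_Tg replicate 4 lay within the Has2_KO range and the other 2 HAS2_Tg libraries below it. The gene was called lower in HAS2_Tg with a log2 fold change of -0.33 (SE 0.12, edgeR adjusted p = 0.0435). Without HAS2_Tg replicate 4 the log2 fold change was -0.53 (edgeR adjusted p = 2.52e-05), and with any other library left out the call ended. With total counts in place of TMM scaling, it was -0.51 (edgeR adjusted p = 0.00277). Kcnj8 pairs with Abcc9, the sulfonylurea receptor subunit of vascular muscle, which had 283 ± 37.8 CPM in HAS2_Tg and 266 ± 12.8 CPM in Has2_KO and was not called (log2 fold change 0.09, SE 0.09, edgeR adjusted p = 0.463). Without HAS2_Tg replicate 4, Abcc9 was called higher in HAS2_Tg by 0.19 on the log2 scale (edgeR adjusted p = 0.0279).

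Several inward rectifier genes lie near each other in the genome. Kcnj2 starts 38.2 kb beyond the end of Kcnj16 on chromosome 11, and Kcnj2 was called lower while Kcnj16 was not called. Kcnj15 lies 259.9 kb from Kcnj6 on chromosome 16 and was not called. Kcnj1, with 4.27 counts in all, lies 28.04 kb from Kcnj5 on chromosome 9, and Kcnj9, with 5 counts, lies 11.9 kb from Kcnj10 on chromosome 1. The difference between the neighbours of a pair was not tested.

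**Figure D3:**
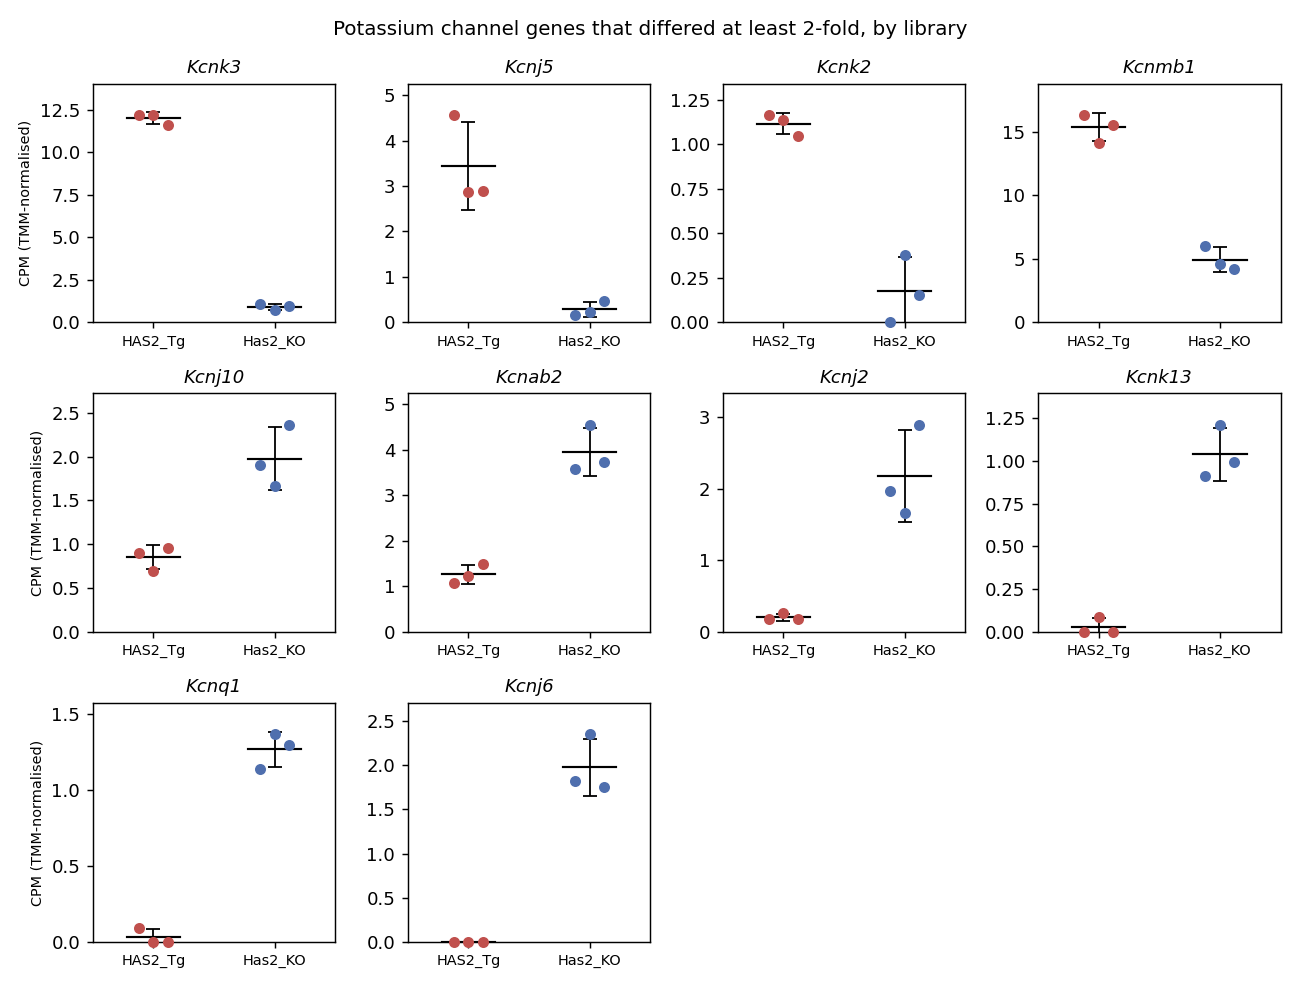
TMM-normalised CPM of 10 of the 12 members called with a fold of at least 2, in order of log2 fold change. Points are single libraries, lines means and error bars SD over 3 libraries, with HAS2_Tg left of Has2_KO and axes from 0. In each panel the groups do not overlap, which the choice by call and fold makes likely. Kcnj6 is at 0 in every HAS2_Tg library.

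Voltage-gated channels open as the membrane depolarises. Of 8 pore-forming members tested, 1 was higher and 3 were lower in HAS2_Tg, with Kcnq1 among those lower. The shares over all genes were 20.2% higher and 20.5% lower. Kcnq5, a slow channel of neurons and vascular smooth muscle, had 12.2 ± 2.42 CPM in HAS2_Tg and 11.4 ± 0.76 CPM in Has2_KO and was not called (0.10, SE 0.14, edgeR adjusted p = 0.617).

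Kcnq1, the slow cardiac and epithelial channel, had 1 count in HAS2_Tg, in replicate 4, and 50 counts in Has2_KO. The scaled Has2_KO sum was 43.2 times that of HAS2_Tg, and counting error alone allows 7.40 to 1739 (95% exact interval). Kcnq1 could pass the filter only through the Has2_KO libraries, which fixed its direction, so its edgeR adjusted p of 2.80e-05 is a description. The antisense gene Kcnq1ot1 shares 121 exonic bases with Kcnq1 on the opposite strand, and no strand setting is given in the sources used here. Kcnq1ot1 had 293 ± 46.6 CPM in HAS2_Tg and 281 ± 14.6 CPM in Has2_KO and was not called. The part of its reads in the Kcnq1 counts was not tested. Kcns3, a subunit that forms no channel of its own, had a log2 fold change of 0.94 (SE 0.38) and missed the threshold (edgeR adjusted p = 0.061). It passed without HAS2_Tg replicate 5 (edgeR adjusted p = 0.0479). Kcnd1 (0.50, SE 0.40) and Kcna6 (-0.07, SE 0.31) were not called.

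Calcium- or sodium-activated channels were scarce. Kcnn1, a small-conductance calcium-activated channel, had 2.14 ± 0.11 CPM in HAS2_Tg and 2.89 ± 0.88 CPM in Has2_KO (log2 fold change -0.43, SE 0.25, edgeR adjusted p = 0.194). Kcnt2, a sodium-activated channel, had 4.03 ± 0.63 CPM in HAS2_Tg and 4.64 ± 0.54 CPM in Has2_KO (-0.20, SE 0.18, edgeR adjusted p = 0.403). The groups overlapped for both genes. Kcnma1, the large-conductance channel pore of smooth muscle, had 4 counts in HAS2_Tg and 11.8 counts in Has2_KO, under the limit for description in detail.

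Of 15 accessory subunit genes listed, 4 were tested and all 4 were called, beside 40.7% of all genes. Among these, Kcne4, Kcnip3 and Kcnmb1 were better measured than most members. Kcnmb1 encodes the beta subunit that raises the calcium sensitivity of the Kcnma1 channel and is a marker of smooth muscle. It had 16.3, 14.1 and 15.6 CPM in HAS2_Tg, against 6.01, 4.55 and 4.20 CPM in Has2_KO. The lowest HAS2_Tg library was above the highest Has2_KO library by more than 2-fold (log2 fold change 1.64, SE 0.15, edgeR adjusted p = 3.59e-07). Its pore partner Kcnma1 was thus near the detection limit in the same libraries in which Kcnmb1 had 522 counts in HAS2_Tg and 194 in Has2_KO. Kcne4, known to act on Kcnq channels, had 40.3, 31.4 and 30.4 CPM in HAS2_Tg and 18.9, 20.6 and 20.1 CPM in Has2_KO. HAS2_Tg replicate 4 was the highest, and the groups did not overlap (0.77, SE 0.11, edgeR adjusted p = 5.98e-05). Kcnip3, a calcium-binding protein that joins Kcnd channels and also acts as a transcriptional repressor, had 27.4, 26.4 and 24.2 CPM in HAS2_Tg and 17.6, 16.7 and 17.3 CPM in Has2_KO. The change was small and the libraries of each group lay close together (0.60, SE 0.09, edgeR adjusted p = 0.00013). Kcnab2, a cytoplasmic beta subunit of Kcna channels, was lower, with 1.08, 1.22 and 1.49 CPM in HAS2_Tg against 3.57, 4.55 and 3.74 CPM in Has2_KO (-1.64, SE 0.24, edgeR adjusted p = 5.10e-05). No HAS2_Tg library reached the lowest Has2_KO library.

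The remaining members were measured by few reads. Kcnab1, Kcnab3, Kcnu1, Kcna2 and Kcnh2 had 30 or more counts but did not pass the filter, and their groups overlapped. Without a filter none of these 5 was called. Of the 40 members under 30 counts, 3 were listed only in HAS2_Tg libraries, 16 only in Has2_KO libraries and 21 in both. The share listed only in HAS2_Tg was 7.5%, beside 13.1% of all 4197 identifiers under 30 counts, and the share listed only in Has2_KO was 40.0%, beside 28.4%. Kcnn4, the calcium-activated channel of blood cells, had 1 count in HAS2_Tg and 23 in Has2_KO, so that the scaled Has2_KO sum was 19.9 times that of HAS2_Tg (95% exact interval 3.22 to 818). Kcne3, a beta subunit of Kcnq1 in epithelia, had 0 counts in HAS2_Tg and 17 in Has2_KO, at least 4.89-fold lower in HAS2_Tg with the same floor. Kcna3, the main voltage-gated channel of lymphocytes, had 0 counts in HAS2_Tg and 5 in Has2_KO. In the other direction, Kcnn2 had 12 counts in HAS2_Tg and 3 in Has2_KO, and Kcna5 had 5 counts in HAS2_Tg and 0 in Has2_KO.

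Markers of other liver cells moved in the same libraries as the channel genes that were lower in HAS2_Tg. The 16 Kupffer cell and macrophage markers summed to 16.9 to 18.7 CPM in HAS2_Tg and 613 to 658 CPM in Has2_KO. Of the 15 tested, 14 were lower in HAS2_Tg and 0 higher, beside 20.5% of all genes called lower and 20.2% called higher. Clec4f and Timd4 had no count in HAS2_Tg. The 15 sinusoidal endothelial markers summed to 23.3 to 26.4 CPM in HAS2_Tg and 1007 to 1099 CPM in Has2_KO. All 15 were lower in HAS2_Tg, with Gpihbp1 and Emcn at 0. The 11 detected hepatocyte markers summed to 23.8 to 25.3 CPM in HAS2_Tg and 57.5 to 74.0 CPM in Has2_KO, with Serpina1c and Hnf4a at 0 in HAS2_Tg. The 8 cholangiocyte markers summed to 3.23 to 3.77 CPM in HAS2_Tg and 28.1 to 31.5 CPM in Has2_KO, with 4 of 4 tested lower and Krt18, Epcam and Cftr at 0 in HAS2_Tg. The 7 detected T and NK cell markers summed to 1.22 to 1.74 CPM in HAS2_Tg and 4.25 to 4.65 CPM in Has2_KO. B cell markers (3 detected) lay at 3.76 to 4.04 CPM in HAS2_Tg and 7.13 to 9.27 CPM in Has2_KO, and neutrophil markers (5 detected) at 30.2 to 34.8 CPM in HAS2_Tg and 39.4 to 42.7 CPM in Has2_KO. The 6 detected neuron and Schwann cell markers summed to 4.63 to 6.02 CPM in HAS2_Tg and 5.16 to 5.32 CPM in Has2_KO, with 0 of 3 tested called. The part of these cells in the channel results was not tested.

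Most tested markers of contractile cells stood higher in HAS2_Tg, as did Kcnmb1 and Kcnk3. The 11 vascular smooth muscle and pericyte markers summed to 2115 to 2456 CPM in HAS2_Tg and 673 to 705 CPM in Has2_KO. Of 8 tested, 6 were higher and 0 lower, with Higd1b at 0 in HAS2_Tg, and Cspg4 averaged 0.50 CPM there against 0.51 CPM in Has2_KO. Abcc9, also in this list, was not called, with 283 ± 37.8 CPM in HAS2_Tg and 266 ± 12.8 CPM in Has2_KO. Of the 10 stellate cell markers, 7 were higher and 0 lower, beside 20.2% of all genes called higher and 20.5% called lower. The part of these cells in the rises of Kcnmb1 and Kcnk3 was not tested.

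**Figure D4:**
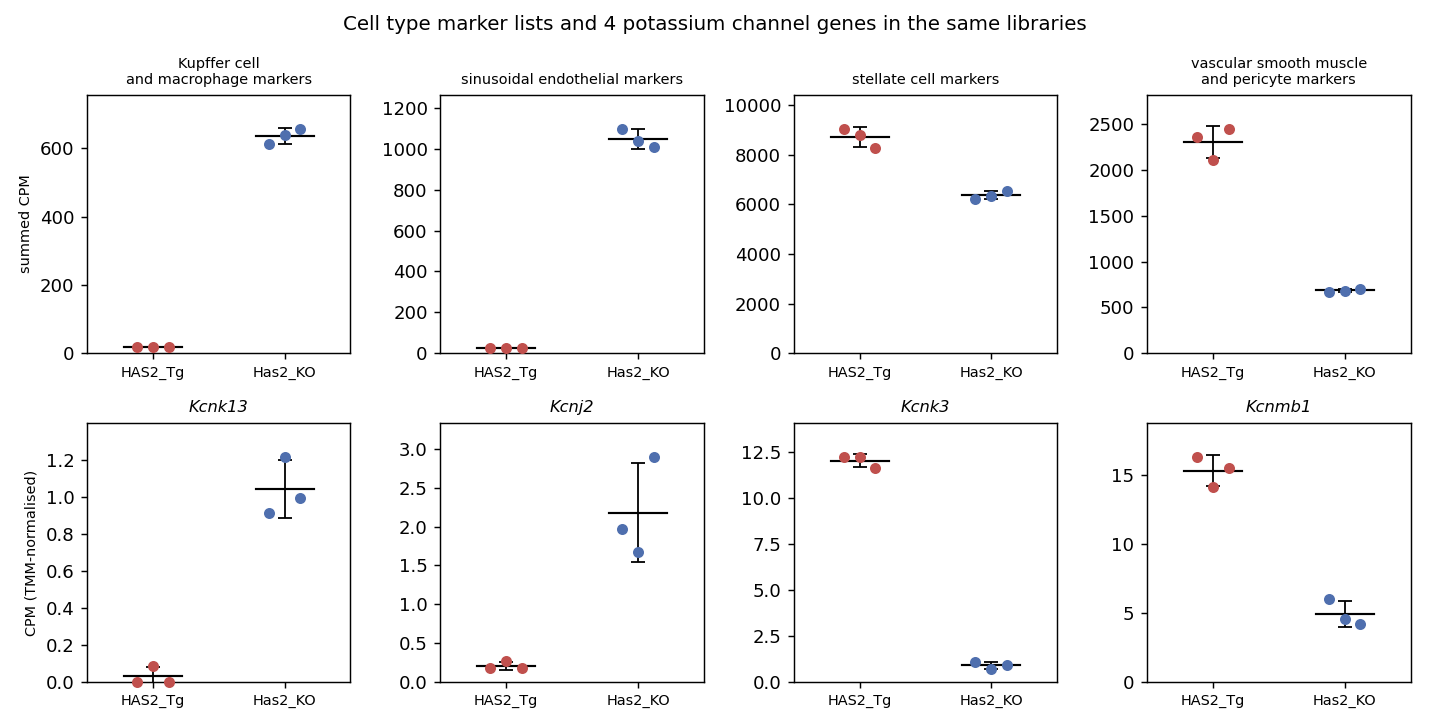
Upper row, summed TMM-normalised CPM of 4 marker lists; lower row, CPM of Kcnk13, Kcnj2, Kcnk3 and Kcnmb1, with HAS2_Tg left of Has2_KO. Points are single libraries, lines means and error bars SD over 3 libraries. Kupffer cell and macrophage markers sum to 16.9 to 18.7 CPM in HAS2_Tg and 613 to 658 CPM in Has2_KO. Vascular smooth muscle and pericyte markers sum to 2115 to 2456 CPM in HAS2_Tg and 673 to 705 CPM in Has2_KO.

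Genes that act with potassium channels in setting voltage, calcium and tone were counted as lists. Over all genes tested, 20.2% were called higher and 20.5% lower in HAS2_Tg. In the nitric oxide and cGMP relaxation list, 7 of 9 were higher and 1 lower in HAS2_Tg (median log2 fold change 0.74, beside -0.01 for all genes). The guanylyl cyclase subunits Gucy1b1 and Gucy1a1 each had 0.93, the cGMP kinase substrate gene Mrvi1 had 1.14, and the natriuretic peptide receptor Npr1 had -3.84, each with an SE of at most 0.16. Voltage-gated calcium channel genes were higher in 4 and lower in 2 of 7 cases (median 0.66). The pore subunit Cacna1c, the target of dihydropyridines, had 9.61 ± 2.00 CPM in HAS2_Tg and 3.63 ± 0.66 CPM in Has2_KO (1.41, SE 0.19), and Cacnb2 had 0.95, Cacnb3 0.89 and Cacna1a 0.66. The lower call of Cacna1d, named after its values were seen, ended in DESeq2's Wald test (adjusted p = 0.098), as it did with any library but Has2_KO replicate 9 left out. The other lower call in this list (-0.50, SE 0.10, edgeR adjusted p = 0.00111) ended only in the test against a fold of 1.5.

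Calcium release and store-operated entry genes moved both ways, 2 higher and 5 lower of 14 (median -0.20). The store sensor Stim1 had 0.92 and the receptor Itpr1 0.84, while Itpr3 had -1.95 and Orai2 -0.74. With total counts 7 of this list were lower. That scaling called 4827 of all 13014 genes lower and 1477 higher. Sodium-potassium pump genes were higher in 2 and lower in 2 of 8 cases, and with total counts higher in 1 and lower in 4. Fxyd1, a pump regulator, had 1.14 and Fxyd5 -0.49, while the beta subunit Atp1b2 had 0.95. It was no longer called when scaled by total counts (edgeR adjusted p = 0.0692), in DESeq2's Wald test (adjusted p = 0.0994), and without HAS2_Tg replicate 5 or 6 or Has2_KO replicate 8 or 9 (edgeR adjusted p from 0.0727 to 0.140). Other depolarising channel genes were higher in 6 and lower in 1 of 11 cases, and with total counts higher in 5 and lower in 3. The stretch channel Piezo2 had 0.86, Trpv2 0.78 and the calcium-activated chloride channel Ano1 -0.91. Of the channel partners, 2 were tested, and Amigo1, which joins voltage-gated channels, had 0.27. It was not called when scaled by total counts (edgeR adjusted p = 0.384), with limma on FPKM, or without HAS2_Tg replicate 5 or any 1 of the Has2_KO libraries (edgeR adjusted p from 0.0535 to 0.0720).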

How the data were processed

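RNA was measured in 3 HAS2_Tg and 3 Has2_KO libraries. Per the submitters' processing notes, RSEM and mm10 were used; the sources used here give no counting strand and no RSEM version. The authors deposited expected counts, which are estimated reads for each gene, and FPKM values were computed by the authors per gene length and depth, per the file headers. A gene missing from a library was set to 0. Symbols came from RefSeq on GRCm38 (17857 of 17909 identifiers).

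After rounding, genes passing filterByExpr were tested in edgeR 4.0.16 (R 4.3.3) with TMM scaling and its robust two-sided quasi-likelihood test, as HAS2_Tg minus Has2_KO. CPM use rounded counts over TMM-adjusted totals. SE was taken from the log2 fold change and the F statistic. Intervals and floors cover counting error only. The alternatives used DESeq2 1.42.0, limma 3.58.1, other scalings, filters and thresholds, and each library left out. The script was tested on simulated data. Named genes followed a rule of 30 or more counts, with every library's values for calls of at least 2-fold with 1 CPM, and for the 3 highest by FPKM. Some genes counted in the totals are not reported here by name. Members, lists and rules were chosen with earlier results of these data known, and other names after their values were seen. Exon overlaps came from GENCODE, where 14 of the 33 members share exonic bases with another gene, 13 of them on the opposite strand. Reads of the partners therefore cannot be told apart. Called members with such an overlap number 7, among them Kcnk2, Kcnk3, Kcnq1, Kcnj6 (380 bases) and Kcnab2 (125 bases, same strand).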

Additional observations from a re-analysis of the deposited data

How the results depend on the processing

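All 18 called members kept their direction and their call with no low-count filter, the DESeq2 Wald test, and scaling by upper quartile, total counts or DESeq2 size factors. Total counts moved the median log2 fold change of all genes to -0.18, beside -0.01 with TMM. Over 16 settings, 12 of 409 single-gene values lost their call, 1 gained it and 0 reversed. The 409 values include members not called at first, which could lose no call, and leave out settings in which a member was not tested. Against a fold of 1.5, 6 members were higher and 6 lower, and the calls that ended included Kcne4, Kcnip3, Kcnj10, Kcnj8 and Kcnk6. With limma on log2(FPKM + 1) or log2(FPKM + 0.1), 11 members were tested, of which 6 were higher and 3 lower, because the FPKM filter removed the low members. On the log2(FPKM + 1) scale, which understates changes of low genes, the log2 fold changes were 1.67 for Kcnk3, 0.99 for Kcnmb1 and -0.70 for Kcnab2. With a mean of at least 1 CPM, 7 were higher and 8 lower, as Kcnk13, Kcnk2 and Kcnq1 were not tested. With each library left out, 8 to 9 members were higher and 9 to 10 lower; Kcnj8 lost its call without each library other than HAS2_Tg replicate 4 and at an adjusted p of 0.01. No paired analysis was possible because the groups share no replicate numbers. At this depth, members with 1 or 0 counts in HAS2_Tg have no measured fold beyond the intervals and bounds given.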
